A study of Mus musculus with 10 samples.

Results

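The genes described here are the 4 Early B-cell factor genes of the mouse (Ebf1, Ebf2, Ebf3 and Ebf4, also called Olf/Ebf or O/E factors) and 2 zinc-finger genes, Zfp423 and Zfp521, whose products bind them. They were chosen by name, 6 of the 41091 gene identifiers in the count tables, and all 6 were among the 16669 genes kept after removal of low counts. The series asked what loss of CBX7 or CBX8, chromodomain subunits of Polycomb repressive complex 1, does in the regenerating olfactory epithelium. Cells came from the adult olfactory epithelium of C57BL6 mice, 9 days after a lesion with methimazole, and were grown attached to gelatin in NeuroCult medium with EGF, FGF2 and heparin. All cultures received a lentiviral short hairpin RNA, and stranded total RNA was sequenced. The hairpin was directed at Cbx8 in 3 libraries, shCBX8 1, 2 and 6. In 3 others, shCBX7 1, 2 and 5, it was directed at Cbx7. The remaining 4 libraries, shCTR 1, 2, 5 and 6, carried a non-targeting scramble hairpin. The labels do not give the number of hairpin sequences per gene, the age in weeks, or whether replicates came from separate animals or cultures.

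EBF proteins are helix-loop-helix transcription factors with their own type of zinc-dependent DNA-binding domain, and they bind as dimers to a palindromic site. EBF1 was found both as a factor that binds the promoters of olfactory neuron genes such as Omp and as a factor that sets up the B-cell lineage. In connective tissue the same family acts in precursors of fat and bone, where EBF2 marks brown fat precursors. ZFP423 was isolated from olfactory tissue of the rat as a partner that binds EBF1 and blocks it, and it also joins SMAD proteins at BMP-responsive genes and commits cells to the fat lineage. ZFP521, its closest relative, binds EBF1 as well, restrains fat development and acts on RUNX2 in bone-forming cells.

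The promoters of 4 of the 6 genes are shown, so that their sequence can be set beside their behaviour. They are those of 3 genes that were lower in shCBX8 and of Ebf4, which did not pass the test. Each is the 250 bases before a RefSeq transcription start (GRCm38.p6), read 5′ to 3′ on the strand of the gene, with each CG pair in capitals. The windows are chr11:44617850-44618099 (plus strand) for Ebf1, chr7:137314446-137314695 (minus strand) for Ebf3, chr2:130295689-130295938 (plus strand) for Ebf4 and chr8:87959596-87959845 (minus strand) for Zfp423. Sequences for Ebf2, which did not pass either, and Zfp521, which was also lower, are not shown.
Ebf1: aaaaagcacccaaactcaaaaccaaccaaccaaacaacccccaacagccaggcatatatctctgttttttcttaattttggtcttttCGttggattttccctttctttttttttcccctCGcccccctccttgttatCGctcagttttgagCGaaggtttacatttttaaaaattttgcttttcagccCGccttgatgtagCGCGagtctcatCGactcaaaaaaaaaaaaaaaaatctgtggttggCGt
Ebf3: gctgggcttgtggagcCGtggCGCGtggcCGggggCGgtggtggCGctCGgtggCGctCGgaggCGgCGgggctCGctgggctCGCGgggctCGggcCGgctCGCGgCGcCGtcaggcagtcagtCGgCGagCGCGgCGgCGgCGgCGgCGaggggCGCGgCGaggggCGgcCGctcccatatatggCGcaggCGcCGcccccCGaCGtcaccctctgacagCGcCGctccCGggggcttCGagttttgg
Ebf4: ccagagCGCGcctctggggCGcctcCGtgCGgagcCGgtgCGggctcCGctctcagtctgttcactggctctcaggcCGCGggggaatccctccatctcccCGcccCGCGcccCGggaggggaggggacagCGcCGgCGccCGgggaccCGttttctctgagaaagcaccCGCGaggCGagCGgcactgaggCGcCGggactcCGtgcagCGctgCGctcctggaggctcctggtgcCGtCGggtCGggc
Zfp423: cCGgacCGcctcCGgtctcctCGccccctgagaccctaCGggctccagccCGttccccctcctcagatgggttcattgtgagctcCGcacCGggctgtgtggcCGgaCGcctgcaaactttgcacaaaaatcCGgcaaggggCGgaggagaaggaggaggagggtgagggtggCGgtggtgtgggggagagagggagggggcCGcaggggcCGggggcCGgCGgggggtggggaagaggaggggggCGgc

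The Ebf3 window had 43 CG pairs and 80.0% G and C, and 99.3% of all 32851 RefSeq promoter windows of this length had fewer CG pairs. The Ebf4 window had 31 CG pairs (75.2% G and C, with fewer in 94.8% of windows) and the Zfp423 window 18 (71.6% G and C, with fewer in 78.3%). The Ebf1 window differed from these in being A- and T-rich, with 9 CG pairs and 40.0% G and C, where the median window had 6 CG pairs and 52.4% G and C. A second RefSeq start of Ebf1 (chr11:44619978-44620227) had 14 CG pairs and one of Zfp423 (chr8:87804440-87804689) had 6. The 2 windows richest in CG belonged to Ebf3, which was lower in shCBX8, and Ebf4, which did not pass. With 4 genes, and windows that differ between starts of a gene, a relation of CG content to the test result was not tested.

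The letters of the EBF site, TCCCNNGGGA (its own reverse complement, so both strands were searched at once), were in none of the 6 windows of these 4 genes and in 256 of the 32851 promoter windows, or 0.779%. The shorter core CCCNNGGG, which is contained in the longer motif, was in the Ebf3 window and in the second Zfp423 window, and in 11.8% of all windows. A match is only a match of letters.

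The 6 genes lie apart in the genome (GRCm38, GENCODE M21 coordinates). Ebf1 (ENSMUSG00000057098) spans chromosome 11, 44617317 to 45008091, on the plus strand. Ebf2 (ENSMUSG00000022053) is on chromosome 14, 67233292 to 67430918, plus strand. Ebf3 (ENSMUSG00000010476) is on chromosome 7, 137193673 to 137314445, minus strand. Ebf4 (ENSMUSG00000053552) is on chromosome 2, 130295169 to 130370481, plus strand. Zfp423 (ENSMUSG00000045333) is on chromosome 8, 87661810 to 87959595, minus strand, and Zfp521 (ENSMUSG00000024420) on chromosome 18, 13687013 to 13972787, minus strand. All are protein-coding, and with strand-specific counting their exons share no sequence with a gene on the same strand. Ebf2 has 5 annotated genes on its opposite strand, of which the most abundant reached 14 counts in a library.

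Libraries held 22763014 to 50463172 gene counts. Cbx8 itself was lower in shCBX8, at 4.99, 5.14 and 4.71 CPM (counts relative to the scaled library size) in shCBX8 1, 2 and 6, against 12.4, 15.9, 10.2 and 10.8 CPM in shCTR 1, 2, 5 and 6 (log2 fold change -1.31, SE 0.22, adjusted p = 0.00416 by edgeR's quasi-likelihood test with Benjamini-Hochberg adjustment over all genes). Cbx7 did not pass in shCBX7, at 3.64, 8.02 and 13.1 CPM in shCBX7 1, 2 and 5, against 17.7, 16.4, 13.5 and 5.30 CPM in shCTR 1, 2, 5 and 6 (log2 fold change -0.67, SE 0.48, adjusted p = 0.929), so shCBX7 names the libraries labelled shCBX7. The control libraries formed a gradient in 2 measures of library quality, with shCTR 1 and 2 the highest. Unmapped reads made up 5.03 to 7.81% in the shCBX8 and shCBX7 libraries, against 21.7%, 19.6%, 14.0% and 9.83% in shCTR 1, 2, 5 and 6. Reads on the strand opposite to 1653 olfactory and vomeronasal receptor genes, a measure of background, came to 14.5 to 27.4 CPM in shCBX8 and 11.0 to 16.1 CPM in shCBX7, against 111, 89.5, 68.8 and 32.9 CPM in shCTR 1, 2, 5 and 6. All 4 controls lay above all 6 other libraries in both measures, so this background and the hairpin cannot be fully told apart. Values without shCTR 1 and 2, the controls highest in both measures, are therefore given beside the results. They still include shCTR 5 and 6, which also lay above the other libraries.

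Omp and Cnga2, genes of mature olfactory neurons, were near 0, while other markers of the labelled tissue were present. Omp, the defining gene of mature olfactory neurons, had 0.0891 to 0.605 CPM over the 10 libraries, Cnga2 had at most 0.323 CPM and Neurog1, of neuronal progenitors, had no count in 6 libraries. Of the other neuronal markers Ncam1 had 19.7 to 83.7 CPM, Adcy3 15.8 to 58.0 CPM and Tubb3 1.93 to 39.5 CPM. Hes6, of the progenitor list, had 18.3 to 75.6 CPM, Cbr2, of the sustentacular list, 20.7 to 119 CPM, and the basal keratin gene Krt5 8.37 to 336 CPM. Collagens, keratins and other markers of connective tissue and epithelium were abundant. These are bulk samples, in which fewer cells of a type and less RNA per cell cannot be told apart.

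In the control cultures the most abundant of the 6 genes were Zfp521 and Ebf1. Per kilobase of exon (RPKM, CPM divided by the merged exon length), Zfp521 averaged 5.73 ± 2.35 in shCTR (SD, n = 4 here and below) and Ebf1 4.32 ± 2.41. By this measure Zfp521 lay above Ebf1 within each control library. With the length of the longest transcript in place of merged exons Ebf1 came out at 7.04 RPKM and Zfp521 at 6.49 RPKM, so their order depended on the length used. Ebf4 followed at 1.81 ± 0.889 RPKM, below Ebf1 within each control library. Zfp423 had 1.07 ± 0.207 RPKM, Ebf2 0.705 ± 0.718 RPKM and Ebf3 0.639 ± 0.112 RPKM, and the spread of Ebf2 took in both of its neighbours. In shCBX8 the order was another one, with Ebf4 first at 2.20 ± 0.675 RPKM (n = 3), then Zfp521 at 0.947 ± 0.713, Ebf1 at 0.656 ± 0.489, Zfp423 at 0.379 ± 0.0226, Ebf2 at 0.138 ± 0.0460 and Ebf3 at 0.0821 ± 0.0645 RPKM. In shCBX7 Zfp521 (4.97 ± 1.96 RPKM) and Ebf1 (3.33 ± 0.868 RPKM) led, followed by Ebf2 (1.68 ± 1.57), Ebf4 (1.37 ± 0.902), Zfp423 (0.809 ± 0.537) and Ebf3 (0.450 ± 0.241 RPKM, n = 3 each).

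**Figure D1:**
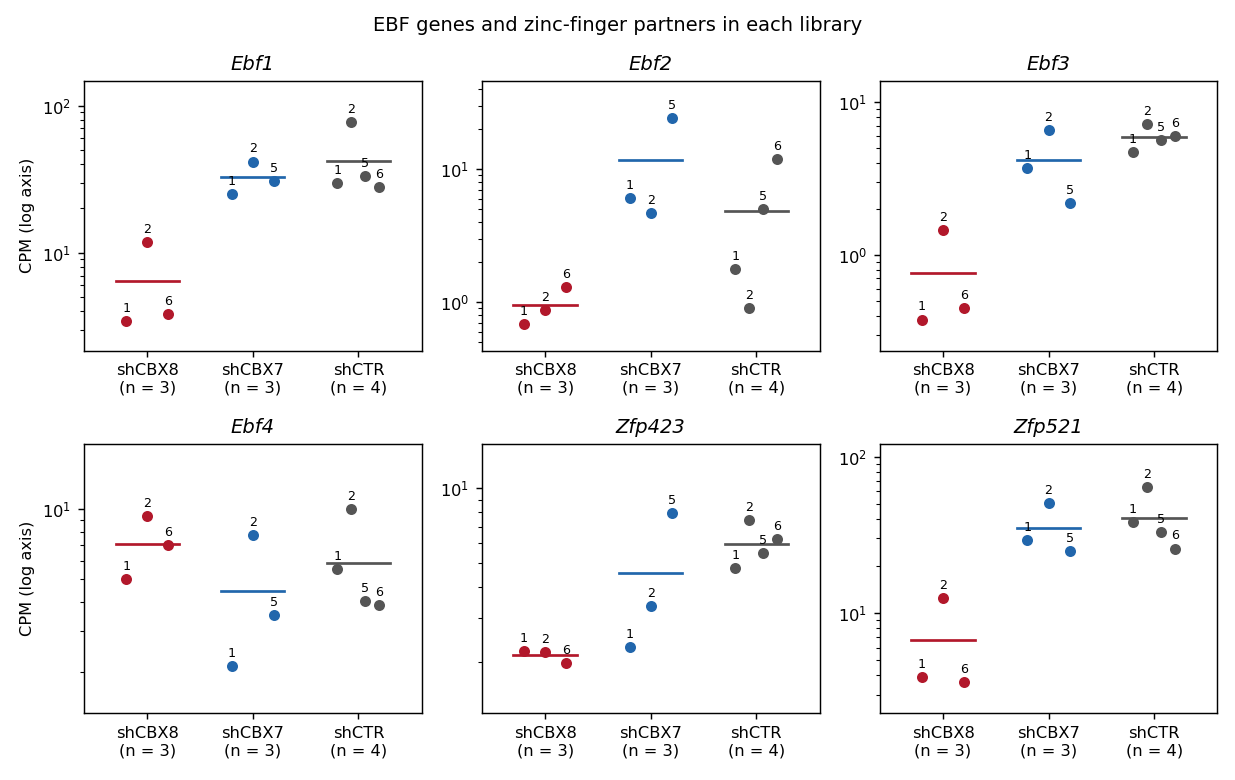
Level of each gene in each library, in CPM on a log axis, with the replicate number above each point and a line at the group mean (3 shCBX8, 3 shCBX7 and 4 shCTR libraries). Ebf1, Ebf3, Zfp423 and Zfp521 lay lower in every shCBX8 library than in every shCTR library, while Ebf2 and Ebf4 overlapped between those groups.

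The Cbx8 hairpin was examined first, as shCBX8 against shCTR. Of the 6 genes, 4 were lower in shCBX8 (Ebf1, Ebf3, Zfp423 and Zfp521), none was higher, and Ebf2 and Ebf4 did not pass. Among all 16669 genes 32.9% passed in this comparison, 15.9% lower and 17% higher. The same 4 genes were lower in every shCBX8 library than in every shCTR library, as were 19.5% of all genes, while 42.4% of all genes did not overlap in either direction. Ebf1, Ebf3 and Zfp521 were 6 to 8 times lower and Zfp423 about 3 times lower.

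Ebf1, the founding member of the family, had 3.46, 11.9 and 3.85 CPM in shCBX8 1, 2 and 6, against 29.9, 77.2, 33.3 and 28.0 CPM in shCTR 1, 2, 5 and 6. The groups did not overlap, and shCBX8 2 and shCTR 2 were each the highest of their group. The means were 6.40 ± 4.77 CPM in shCBX8 (SD, n = 3) and 42.1 ± 23.5 CPM in shCTR (n = 4), a log2 fold change of -2.72 (SE 0.55, 95% interval -3.96 to -1.48, adjusted p = 0.00803), or 6.59-fold lower. Without shCTR 1 and 2 it was -2.28 (adjusted p = 0.0333), and without shCBX8 2, the highest library of its group, -3.52. With the opposite-strand background of each library as a covariate the value was -2.89, no longer past the threshold (adjusted p = 0.105).

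Ebf3, which in the mouse acts with the other family members in olfactory neurons and in connective tissue, had the lowest mean RPKM over merged exons in each group. With the length of the longest transcript Ebf2 was lower in shCTR (0.938 RPKM for Ebf2 and 1.18 RPKM for Ebf3). Ebf3 had 0.377, 1.44 and 0.452 CPM in shCBX8 1, 2 and 6, against 4.71, 7.21, 5.66 and 5.99 CPM in shCTR 1, 2, 5 and 6. The lowest control was more than 3 times the highest shCBX8 library. The shCBX8 values rest on 18, 48 and 21 counts, against 119 to 208 counts in shCTR. Its log2 fold change was -2.97 (SE 0.56, 95% interval -4.24 to -1.71, adjusted p = 0.00618), or 7.85-fold lower. It was -2.98 without shCTR 1 and 2 (adjusted p = 0.032) and -3.82 without shCBX8 2. Ebf3 passed in each of the 22 other settings tried, with the adjusted p reaching at most 0.0336, and was the one gene of the 6 that also passed with the background covariate (-3.81).

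Zfp521, the inhibitor of fat development, had 3.90, 12.4 and 3.63 CPM in shCBX8 1, 2 and 6, against 38.4, 63.8, 33.1 and 25.9 CPM in shCTR 1, 2, 5 and 6. As for Ebf1, the groups were apart and replicate 2 was the highest in each. The means were 6.66 ± 5.01 CPM in shCBX8 and 40.3 ± 16.5 CPM in shCTR, a log2 fold change of -2.60 (SE 0.53, 95% interval -3.79 to -1.41, adjusted p = 0.00825). It was -2.17 without shCTR 1 and 2 (adjusted p = 0.0444) and -3.42 without shCBX8 2, and with the background covariate -2.67, which did not pass (adjusted p = 0.118).

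Zfp423, the EBF1 partner that also binds SMADs, had 2.20, 2.19 and 1.98 CPM in shCBX8 1, 2 and 6, against 4.75, 7.46, 5.48 and 6.25 CPM in shCTR 1, 2, 5 and 6. The 3 shCBX8 libraries were nearly alike, and all lay below the controls. The log2 fold change was -1.49 (SE 0.40, 95% interval -2.40 to -0.58, adjusted p = 0.0223), or 2.81-fold lower. This call was the least firm of the 4. It ended without shCBX8 1 (-1.51, adjusted p = 0.0763), without shCBX8 6 (-1.44, adjusted p = 0.0845), without shCTR 1 and 2 (-1.48, adjusted p = 0.0744) and with the background covariate (-1.39, adjusted p = 0.192), while its size hardly moved.

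Ebf2, the brown fat precursor factor, had 0.691, 0.872 and 1.31 CPM in shCBX8 1, 2 and 6, against 1.78, 0.902, 4.98 and 11.9 CPM in shCTR 1, 2, 5 and 6. The shCTR 2 value lay within the range of shCBX8, and the controls ranged over more than 10-fold. The log2 fold change was -2.35 (SE 0.92, 95% interval -4.43 to -0.28, adjusted p = 0.0769) and did not pass. The 2 control libraries with the least Ebf2 were those with the highest background. There 17 and 10 counts fell on the opposite strand beside 45 and 18 on the strand of the gene. Without shCTR 1 and 2 the value was -3.15 and passed (adjusted p = 0.0373), as it did without shCTR 2 alone (-2.72, adjusted p = 0.0433) and with DESeq2 (adjusted p = 0.0143). Without shCTR 6, the control with the most Ebf2, it was -1.42.

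Ebf4, the family member of which least is known, had 4.99, 9.35 and 6.99 CPM in shCBX8 1, 2 and 6, against 5.50, 10.02, 4.02 and 3.86 CPM in shCTR 1, 2, 5 and 6. The groups overlapped throughout. The log2 fold change was 0.28 (SE 0.48, 95% interval -0.80 to 1.37, adjusted p = 0.676), an interval that does not reach the values of Ebf1, Ebf3 and Zfp521 but holds changes of more than 2-fold upward. Without shCTR 1 and 2 it was 0.83 (adjusted p = 0.303).

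**Figure D2:**
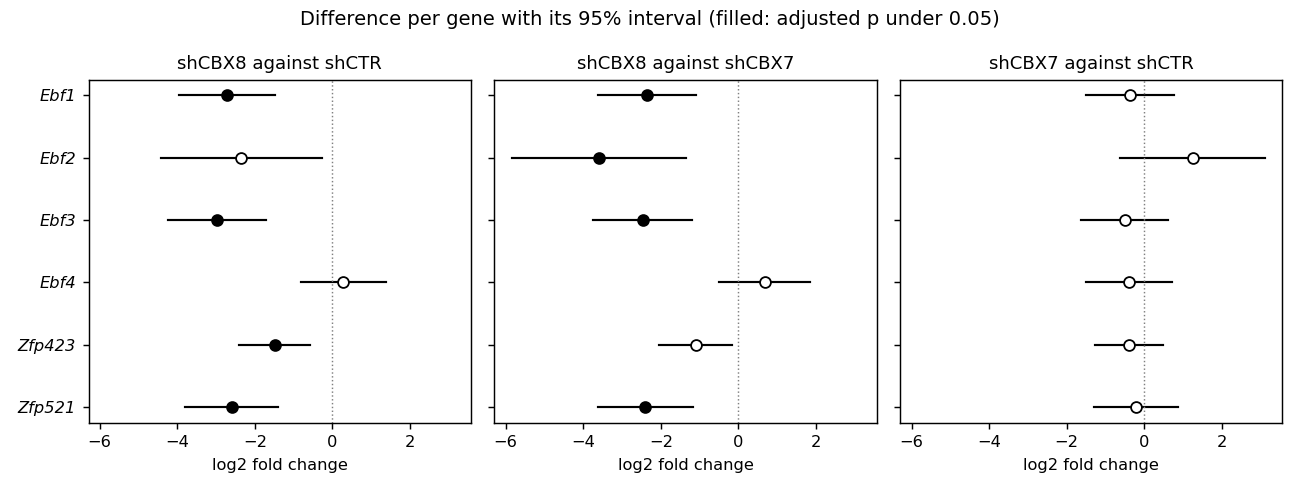
Log2 fold change of each gene with its 95% interval in the 3 comparisons (edgeR, all 10 libraries), with filled points where the adjusted p was under 0.05. Ebf1, Ebf3 and Zfp521 lie between -3.0 and -2.3 against both shCTR and shCBX7, and every interval for shCBX7 against shCTR crosses 0.

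In the libraries labelled shCBX7 no difference from control passed the test for any of the 6 genes, where 0% of all genes did (975 of 16669 had an unadjusted p under 0.05, and DESeq2 called 91). All 6 genes overlapped between the groups, where 5.42% of all genes did not (3.73% lower). Ebf1 had 25.0, 41.7 and 30.9 CPM in shCBX7 1, 2 and 5 (log2 fold change -0.37, 95% interval -1.50 to 0.75). Ebf3 had 3.71, 6.56 and 2.19 CPM (-0.51, -1.63 to 0.62), of which shCBX7 1 and 5 were below every control. Zfp521 had 29.3, 50.6 and 24.9 CPM (-0.20, -1.29 to 0.88). For these 3 genes the intervals leave out a fall as large as the log2 fold change seen in shCBX8.

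The other 3 genes varied more among the shCBX7 libraries. Ebf2 had 6.07, 4.66 and 24.2 CPM in shCBX7 1, 2 and 5, and shCBX7 5 exceeded every other library of the series (log2 fold change 1.24, 95% interval -0.63 to 3.11, and 0.14 without shCBX7 5). Zfp423 had 2.30, 3.36 and 7.97 CPM (-0.40, -1.27 to 0.48). Here shCBX7 1 and 2 lay below all controls, with shCBX7 1 close to the shCBX8 libraries, while shCBX7 5 lay above all controls. Ebf4 had 2.13, 7.72 and 3.50 CPM (-0.39, -1.50 to 0.71). The adjusted p of the 6 genes lay between 0.929 and 0.975, and this comparison shares its 4 control libraries with that of shCBX8.

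Set against shCBX7, shCBX8 again had lower levels of Ebf1, Ebf3 and Zfp521, and here Ebf2 passed in place of Zfp423. In all 4 of the 6 genes were lower and none was higher, where 28.6% of all genes passed (13.3% lower, 15.3% higher). Of the 6 genes 5 did not overlap, all lower in shCBX8, beside 48.2% of all genes (22.6% lower). The log2 fold changes were -2.35 for Ebf1 (SE 0.56, adjusted p = 0.0161), -2.47 for Ebf3 (SE 0.57, adjusted p = 0.0142) and -2.40 for Zfp521 (SE 0.54, adjusted p = 0.0135). Ebf2 had a log2 fold change of -3.60 (95% interval -5.84 to -1.35, adjusted p = 0.0272), and its groups did not overlap, at up to 1.31 CPM in shCBX8 and at least 4.66 CPM in shCBX7. Zfp423 did not overlap either, but by a narrow gap (at most 2.20 CPM in shCBX8 and at least 2.30 CPM in shCBX7), and at -1.09 (SE 0.42, adjusted p = 0.0762) it did not pass. It passed without shCBX7 1 (-1.45, adjusted p = 0.0361) and was -0.42 without shCBX7 5. Ebf4 had 0.68 (95% interval -0.49 to 1.85, adjusted p = 0.349).

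Each of these 4 calls ended when shCBX8 1 or shCBX8 6 was left out, with adjusted p between 0.0549 and 0.103, while the log2 fold changes stayed between -3.90 and -2.05. The call of Ebf2 ended also without shCBX8 2 (adjusted p = 0.0536) and without shCBX7 5 (-2.49, adjusted p = 0.0751). It was also lost once background entered as a covariate (-2.82, adjusted p = 0.063). The number of all genes called was 1848 without shCBX8 1, 1784 without shCBX8 6 and 6005 without shCBX8 2, against 4762 with all libraries.

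The composition of the EBF family moved with these differences. Ebf4 made up 65.8 to 77.3% of the summed RPKM of the 4 EBF genes in shCBX8, against 13.6 to 29.7% in shCBX7 and 18.6 to 30.7% in shCTR. Ebf1 made up 14.1 to 27.8% in shCBX8, against 39.7 to 57.0% in shCBX7 and 44.7 to 66.4% in shCTR. The ranges of shCBX8 did not overlap those of the other groups for either gene. Ebf3 made up 1.75 to 3.56% in shCBX8, 2.97 to 8.94% in shCBX7 and 6.56 to 10.2% in shCTR. Ebf2 varied most, at 2.87 to 6.78% in shCBX8, 8.37 to 43.8% in shCBX7 and 1.09 to 26.7% in shCTR. The sum of the 4 genes was 2.04 to 4.39 RPKM in shCBX8, 4.50 to 8.04 RPKM in shCBX7 and 5.54 to 11.9 RPKM in shCTR. These shares are descriptions with no test of their own, and they restate the levels above on a common scale.

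**Figure D3:**
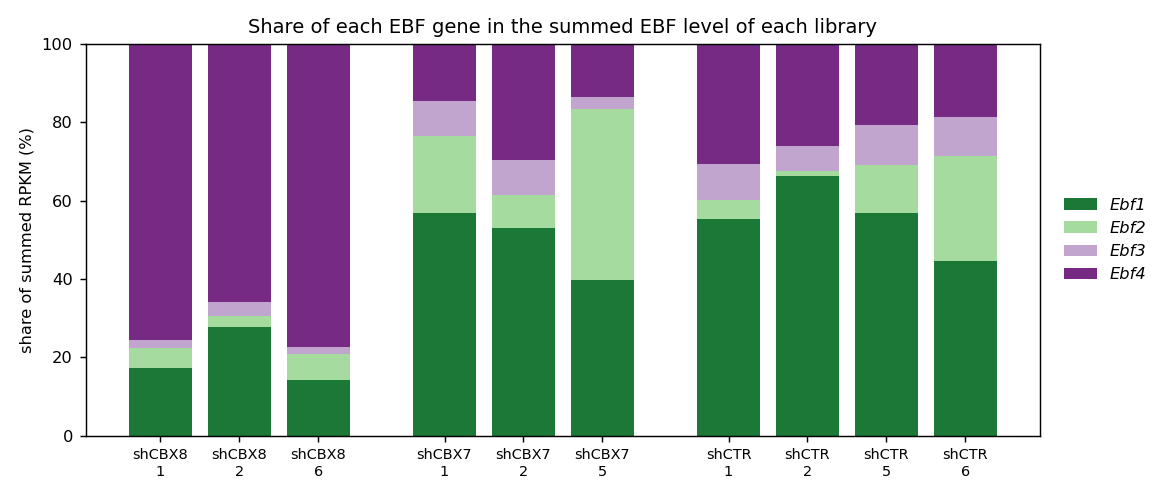
Share of each EBF gene in the summed RPKM of Ebf1, Ebf2, Ebf3 and Ebf4, in percent, one bar per library (shCBX8, shCBX7 and shCTR, with replicate numbers). Ebf4 takes at least 65.8% of the bar in each shCBX8 library and at most 30.7% in every other library.

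Of the 2 partners, Zfp521 exceeded Zfp423 per kilobase of exon in every library. The ratio of their RPKM was 1.41 to 4.52 in shCBX8, 2.496 to 12.03 in shCBX7 and 3.30 to 6.82 in shCTR, with overlap between all groups. Zfp521 therefore stayed the more abundant partner in all 10 libraries.

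Genes around these factors were described by 7 lists, with counts from the same fit. In shCBX7 against shCTR no gene of any list passed. The counts in shCBX8 against shCTR stand beside 32.9% of all genes passed, 15.9% lower and 17% higher. The longest list held BMP ligands, receptors, SMADs and their ID targets, with which ZFP423 acts. Of its 19 genes, all tested, 7 fell and none rose (Bmpr1a, Bmpr2, Acvr1, Smad5, Smad7, Id2 and Id3), beside 15.9% of all genes lower, with a median log2 fold change of -1.005 over the list and -0.01 over all genes. Smad5, a signal carrier of BMP receptors, had 58.1 ± 4.19 CPM in shCBX8 (n = 3) and 155 ± 12.4 CPM in shCTR (n = 4; log2 fold change -1.42, SE 0.11, adjusted p = 0.000751). Acvr1, a type I BMP receptor, had 12.8 ± 3.59 CPM in shCBX8 and 36.6 ± 3.27 CPM in shCTR (-1.52, SE 0.19, adjusted p = 0.00169). Both passed in all 22 other settings. The list's count was 4 without shCBX8 1, without shCBX8 6, and without shCTR 1 and 2, and 11 with DESeq2. Against shCBX7, 6 of the 19 fell and none rose, beside 13.3% of all genes lower (median -0.71), Smad5 and Acvr1 among them.

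Of the 10 Notch and retinoic acid genes linked to ZFP423, 9 were tested, 2 fell and none rose (median -0.20). Rxra, the common partner of retinoid receptors, had 50.4 ± 18.7 CPM in shCBX8 and 115 ± 9.05 CPM in shCTR (log2 fold change -1.19, SE 0.22, adjusted p = 0.0058) and passed in all 22 other settings. Rarb, a retinoic acid receptor, had 0.756 ± 0.161 CPM in shCBX8 and 2.19 ± 0.637 CPM in shCTR (-1.52, SE 0.41, adjusted p = 0.0214), a call that ended without any one of the shCBX8 libraries (adjusted p 0.0513 to 0.0687). Of the 10 bone and cartilage genes linked to ZFP521, 6 were tested and 1 fell (median -1.26). It was Runx2, the master regulator of bone formation and a target of ZFP521 action, with 7.54 ± 1.26 CPM in shCBX8 and 15.8 ± 4.73 CPM in shCTR (-1.07, SE 0.27, adjusted p = 0.0172). Its call ended without shCBX8 1 or shCBX8 6 (adjusted p 0.0719 to 0.0745).

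Fat lineage genes did not move one way. Of 14 listed, 11 were tested, 2 rose (Fabp4 and Cidea) and 2 fell (Lpl and Prdm16), with a median of -0.83. That is close to the 32.9% of all genes that passed. Fabp4, a fatty acid carrier of fat cells, had 2.12 ± 1.49 CPM in shCBX8 and 0.461 ± 0.280 CPM in shCTR (2.21, SE 0.56, adjusted p = 0.0173). Prdm16, a brown fat regulator, had 3.12 ± 0.579 CPM in shCBX8 and 7.95 ± 4.001 CPM in shCTR (-1.35, SE 0.43, adjusted p = 0.0388). Lpl, which encodes lipoprotein lipase, had 0.621 ± 0.175 CPM in shCBX8 and 42.5 ± 77.0 CPM in shCTR (-6.08, SE 1.86, adjusted p = 0.0344, but -2.69 without shCTR 2). Over the 21 other settings with a value for Lpl, it ranged from -6.49 to -0.71, with adjusted p up to 0.868. The call of Lpl ended without any one of the shCBX8 libraries (adjusted p 0.0762 to 0.115), and that of Prdm16 without shCBX8 1, shCBX8 6, shCBX7 5, shCTR 2 or shCTR 6 (adjusted p 0.0508 to 0.129).

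Of the 13 subunits of the NuRD complex, the repressor that both zinc-finger proteins recruit, 3 rose and 2 fell (median 0.03), a share near the 32.9% of all genes, from which nothing is read about the complex. The deacetylase gene Hdac1 had 48.9 ± 4.86 CPM in shCBX8 and 33.6 ± 5.21 CPM in shCTR (0.54, SE 0.15, adjusted p = 0.0218), and Gatad2a had 155 ± 3.96 CPM in shCBX8 and 93.6 ± 22.4 CPM in shCTR (0.73, SE 0.18, adjusted p = 0.0148). Gatad2b had 5.64 ± 0.209 CPM in shCBX8 and 8.38 ± 0.561 CPM in shCTR (-0.57, SE 0.16, adjusted p = 0.0277), and Mta1 had 23.8 ± 8.24 CPM in shCBX8 and 42.6 ± 10.5 CPM in shCTR (-0.84, SE 0.28, adjusted p = 0.0444). Mta3 was the third gene that rose. No gene of this list passed without shCBX8 1 or without shCBX8 6. Calls also ended without shCTR 5 for Hdac1, without shCTR 6 for Gatad2b, and without shCBX7 2 or 5 or shCTR 2, 5 or 6 for Mta1 (adjusted p up to 0.164).

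Apart from Adcy3 and Ric8b, the genes of the olfactory and B-cell lists averaged under 5 CPM in each group. Of 13 olfactory signalling genes 7 were tested, 2 rose (Gng13 and Gnal) and none fell (median -0.18). Adcy3, the adenylyl cyclase of odorant signalling, had 22.5 ± 11.1 CPM in shCBX8 and 42.8 ± 10.9 CPM in shCTR and did not pass (-0.93, SE 0.33, adjusted p = 0.0531). Gnal, the G protein subunit of odorant receptors, had 3.55 ± 0.539 CPM in shCBX8 and 1.91 ± 0.317 CPM in shCTR (0.90, SE 0.30, adjusted p = 0.0486). It was 0.01 with unstranded counts, and its call ended without shCBX8 1, 2 or 6, shCBX7 2, or shCTR 1, 2, 5 or 6 (adjusted p 0.051 to 0.156). Of 9 B-lineage genes 4 were tested, 1 rose and 1 fell (Pou2af1, under 1 CPM). Igll1, a surrogate light chain, had 4.77 ± 2.78 CPM in shCBX8 and 0.705 ± 0.602 CPM in shCTR (2.74, SE 0.94, adjusted p = 0.0496), and its call ended without shCBX8 1 or 6, shCBX7 1, or shCTR 1, 5 or 6 (adjusted p 0.0529 to 0.167). Cd79a and Cd79b, the B-cell receptor signal chains, had at most 4 counts in a library.

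Of the 14 genes of these lists given with values, 5 passed with the background covariate (Smad5, Acvr1, Rxra, Hdac1 and Mta1) and 5 without shCTR 1 and 2 (Smad5, Acvr1, Rxra, Hdac1 and Fabp4). Without shCTR 1 and 2 the counts of genes past the threshold were 1 for the Notch and retinoic acid list, 0 for bone and cartilage, 2 for the fat lineage, 1 for NuRD, 1 for olfactory signalling and 0 for the B lineage.

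Over the 10 libraries the 6 genes fell into different company. Likeness was measured as Pearson's r of log2(CPM + 1) with each of 10923 or 10924 protein-coding genes of at least 5 CPM, as a description in which group differences and shared libraries both take part. Zfp521 was most like Fkbp7, Efna2 and Fcgrt (r = 0.997 to 0.995), and 996 genes had r above 0.9 with it. Ebf1 was most like Wnt5a, Cemip and Ctdsp1 (r = 0.995 to 0.989, 914 genes above 0.9) and Ebf3 most like Shox2, Tbpl1 and Adra2a (r = 0.979 to 0.973, 542 genes above 0.9). Without shCBX8 the r of Ebf1 over 7 libraries was 0.978 with Wnt5a, 0.951 with Cemip and 0.919 with Ctdsp1. That of Ebf3 was 0.944 with Shox2, 0.866 with Tbpl1 and 0.860 with Adra2a. The 7 libraries are among the 10 by which these genes were picked, so a high r there is no separate support.

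The other 3 genes had few near neighbours. Zfp423 was most like Fam193a, Egfr and Rnpepl1 (r = 0.9755 to 0.955, 21 genes above 0.9), Ebf2 most like Gcn1l1, Fbxl19 and Heatr6 (r = 0.945 to 0.939, 20 genes) and Ebf4 most like Kif7, Mpp2 and Dock6 (r = 0.939 to 0.930, 6 genes). Zfp423 thus passed the same test as Ebf1, Ebf3 and Zfp521 with a much narrower set of genes that resembled it.

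Connective tissue markers moved with Ebf1, Ebf3 and Zfp521. The summed CPM of 15 fibroblast and mesenchyme markers was 424, 3692 and 289.9 in shCBX8 1, 2 and 6, then 6279.9, 19956 and 8061 in shCBX7 1, 2 and 5, and 13201, 36046, 8341 and 6590.2 in shCTR 1, 2, 5 and 6. Replicate 2 was the highest in each group, as it was for Ebf1, Ebf3 and Zfp521. Of the 14 markers tested, 5 fell in shCBX8 against shCTR (Col1a1, Col5a1, Col6a1, Fbln1 and Postn) and none rose, beside 15.9% of all genes lower, with a median log2 fold change of -3.28, and Tcf21 had no count in 8 libraries. The count was 13 without shCBX8 2, 11 with DESeq2, 1 without shCBX8 1, without shCBX8 6, or without shCTR 1 and 2, and 0 with the background covariate. In shCBX8 against shCBX7, 1 of the 14 fell (Col5a1; median -2.36).

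**Figure D4:**
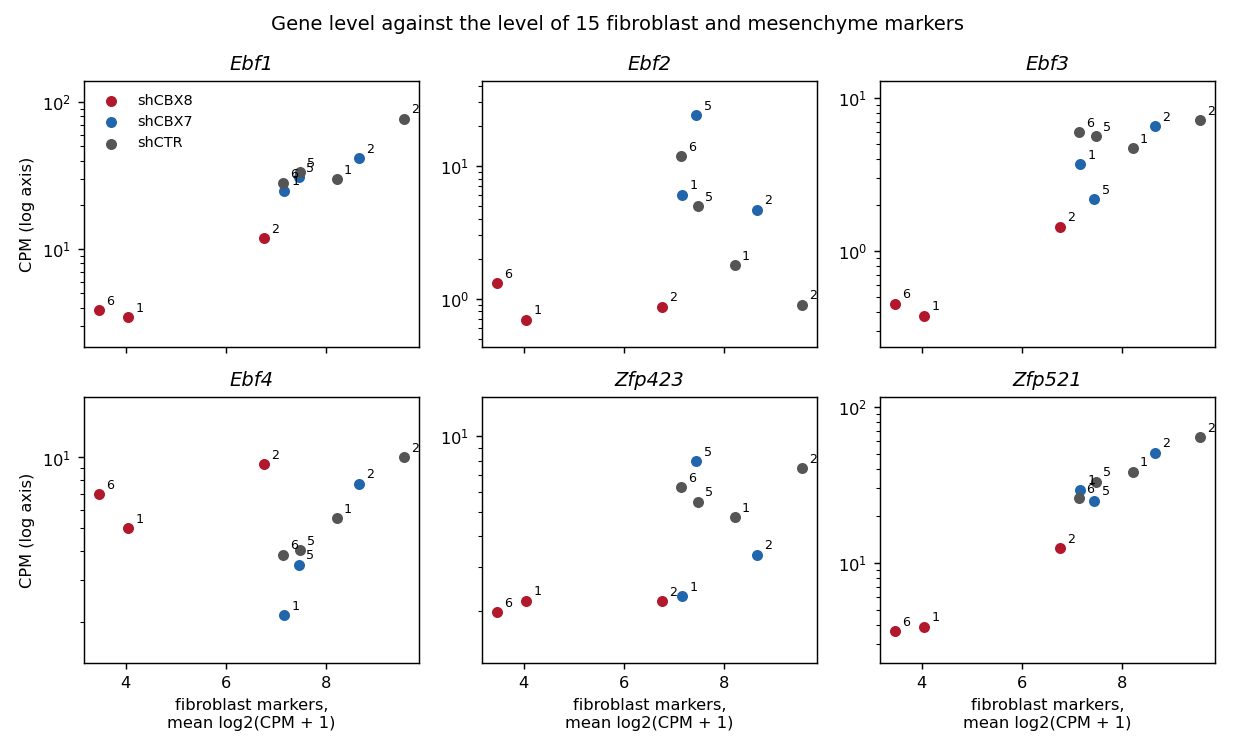
Level of each gene in CPM (log axis) against the mean log2(CPM + 1) of 15 fibroblast and mesenchyme markers, one point per library with its replicate number. For Ebf1 and Zfp521 the 10 libraries run along one rising band, with shCBX8 1 and 6 at the low end, while Ebf2, Ebf4 and Zfp423 are scattered.

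Epithelial markers moved the other way. The summed CPM of 10 basal and simple epithelial markers was 6851 to 17986 in shCBX8, 181 to 3089 in shCBX7 and 243 to 3321 in shCTR, and 5 of the 10 rose in shCBX8 against shCTR, beside 17% of all genes higher (Trp63, Krt8, Krt18, Cldn4 and Krt17), with no gene of this list at 0 in any library. The count ranged from 0 to 8 as single libraries were left out, with 0 without shCBX8 6, 1 without shCBX8 1, shCTR 1 or shCTR 5, and 8 without shCTR 6. It was 0 without shCTR 1 and 2 together, 0 with the background covariate and 8 in a fit to the pair of groups alone. Of 11 smooth muscle and pericyte markers 2 rose (Rgs5 and Mcam) and 2 fell (Abcc9 and Cspg4). That is near the 32.9% of all genes that passed in shCBX8 against shCTR. The count was 2 without shCBX8 1 or shCBX8 6. The summed CPM of the 11 was 2057 to 6146 in shCBX8, 631 to 1408 in shCBX7 and 773 to 1933 in shCTR. Rgs5 alone had 1581 to 5166 CPM in shCBX8, 317 to 1190 CPM in shCBX7 and 105 to 1258 CPM in shCTR. The mean log2(CPM + 1) of the list overlapped between shCBX8 (4.01 to 4.66) and shCTR (3.81 to 4.43). The part of these marker differences in the levels of the EBF and zinc-finger genes was not tested.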

How the data were processed

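Total RNA from 10 lentivirus-treated cultures of mouse olfactory epithelium was sequenced from stranded libraries made from 500 ng of RNA, per the labels. The submitters' processing notes name bcl2fastq 2.17 for demultiplexing, Trim Galore 0.4.3 for trimming, and STAR 2.5.0a with the mm10 build for alignment. For the annotation counted, no release is stated in the sources used here. In the deposited tables the values are raw gene counts (unstranded, forward and reverse strand), which the authors did not normalize. The reverse-strand counts were used, since the forward strand held 3.42 to 10.4% of stranded counts. The 4 rows that name no gene were left out: unmapped (5.03 to 21.7% of reads), multimapping (15.4 to 22.1%), in no gene (12.5 to 23.6%) and ambiguous (0.290 to 0.637%). Of 41091 identifiers, 40217 matched GENCODE M21, which gave symbols and lengths. Depth was 22763014 to 50463172 gene counts per library, and over all genes the 95% interval had a median half-width of 0.61 (log2) in shCBX8 against shCTR and 0.60 in shCBX7 against shCTR.

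With edgeR 4.0.16 (limma 3.58.1, R 4.3.3), 16669 genes passed filterByExpr (minimum count 10). Scaling used the trimmed mean of M values, and the quasi-likelihood test was fitted to all 10 with the group as the factor (biological coefficient of variation 0.375). P-values were adjusted over all genes by the Benjamini-Hochberg method, with a threshold of 0.05. They set the group differences only against the spread of these samples, and that spread may be technical. The same steps were tested on simulated counts. In all 12 pairs of libraries of a group, counts differed beyond sampling noise (chi-square per degree of freedom 28.1 to 445). The lowest value was that of shCBX8 1 against shCBX8 6, and the next lowest was 111. Each library was counted as 1 replicate, though this check cannot tell separate cultures or animals from repeated libraries of 1 culture. The covariate was the log2 CPM on the strand opposite to the receptor genes.

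The genes, lists and settings were chosen with earlier results of these data known. Named were the 6 genes, for each list the up to 2 genes per direction with the smallest p in shCBX8 against shCTR among those past the threshold with at least 1 CPM on average, and the 3 genes most like each of the 6. Other genes named in a list's count, and the marker genes, were named after their values were seen. Alternatives were RLE scaling, unscaled library sizes, all genes kept, genes with at least 1 CPM on average, DESeq2 1.42.0, unstranded counts, forward counts subtracted, fits to the pair of groups alone, a replicate block, the background covariate, shCTR 1 and 2 left out, each library left out, a threshold of 0.01 and, for levels, the longest transcript. No promoter of Ebf2 was used. Intervals and counts cover counting and replicate error of these libraries only.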

Additional observations from a re-analysis of the deposited data

Results flagged for a closer look

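The level of Ebf1 in the control group stood out because 1 library lay far from the other 3. Replicate 2 had 77.2 CPM and the next highest control 33.3 CPM, a gap of 0.893 of the whole range, above Dixon's critical value for 4 samples. Of the 6 genes 1 stood out in this way, and chance alone flags about 1 group in 20. The same library had the highest Ebf3, Ebf4, Zfp423 and Zfp521 levels and the highest sum of fibroblast markers among the controls. It was also 1 of the 2 controls with the most unmapped reads. Without it the log2 fold change of Ebf1 in shCBX8 against shCTR was -2.28, and in shCBX7 against shCTR 0.10. The part of that library's background or marker level in its Ebf1 value was not tested.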

How the results depend on the processing

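In shCBX8 against shCTR each of the 6 genes kept its direction in all 22 other settings. The count of 4 genes past the threshold was 1 with the background covariate (Ebf3) and 3 to 5 as single libraries were left out. Among all genes 5478 passed, and 2311 with the covariate, 2409 without shCTR 1 and 2, 1844 at a threshold of 0.01 and 2261 to 6193 as single libraries were left out. In shCBX8 against shCBX7 the 4 genes became 0 at a threshold of 0.01 and 0 to 5 without single libraries. All genes went with them, 1350 at 0.01 and 1784 to 6005 without single libraries (2730 without shCBX7 1, 2900 without shCBX7 2), against 4762. In shCBX7 against shCTR the count of all genes was 91 with DESeq2 and 0 to 41 without single libraries (41 without shCTR 6), and that of the 6 genes 0 throughout. There, log2 fold changes that did not pass changed sign: with the covariate to -1.09 for Ebf2 and 0.53 for Ebf4, without shCTR 1 and 2 to 0.086 for Ebf1, 0.17 for Ebf4 and 0.25 for Zfp521, and without shCTR 2 to 0.10 for Ebf1 and 0.11 for Zfp521, while Zfp521 was at 0.00 without shCBX7 5. Over all single libraries left out, Ebf1 ranged from -0.57 to 0.10 and Zfp521 from -0.54 to 0.11. The cause was not tested. With the longest transcript as length the control levels of Ebf1 and Ebf3 moved to 7.04 and 1.18 RPKM. With library size only, the median of all genes shifted to 0.17 (log2) in shCBX8 against shCTR (67.2% of calls higher, against 51.6%) and to 0.15 against shCBX7 (67.1%, against 53.5%), and no call among the 6 genes changed. The replicate numbers were not taken as pairs, since no label says what they mark and 2 of 8 same-numbered pairs did not deviate together (r from -0.08 to 0.69 over the 8, with 6 over 0.1), though the 6 are a hint of pairing. In a fit with a replicate block, Ebf1 was -2.83 (adjusted p = 0.0015) and Zfp423 -1.33 (adjusted p = 0.0346) in shCBX8 against shCTR, and no call among the 6 genes changed, while 14 of 14 fibroblast and 9 of 10 epithelial markers passed. Counts near 20, as for Ebf3 in shCBX8 and Ebf2 in shCTR 2, limit precision.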

Other observations

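Within the shCBX7 group the libraries did not order the genes alike. Zfp423 was 2.30, 3.36 and 7.97 CPM in shCBX7 1, 2 and 5 and Ebf2 was 6.07, 4.66 and 24.2 CPM, while Cbx7 was 3.64, 8.02 and 13.1 CPM. Ebf3 was lowest, at 2.19 CPM, in the library with the most Ebf2, Zfp423 and Cbx7. These are values of 3 libraries, with no test.

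Markers of other cell types gave the counts below in shCBX8 against shCTR, where 32.9% of all genes passed, so a count of about 1 in 3 is near the background. Of 7 immune-cell markers tested 3 rose (Cd14, Cd68 and Aif1, the last with at most 0.775 CPM in a library) and none fell. Ptprc averaged 1.05 CPM in shCBX8 and 0.961 CPM in shCTR, and Csf1r 0.183 and 0.363 CPM, and neither was among the 3. Of 5 markers of globose basal cells and neuronal progenitors 3 rose and 1 fell, of 10 olfactory neuron markers 2 rose and 2 fell, of 7 endothelial markers 2 rose, of 6 ensheathing and Schwann cell markers 1 fell, and of 4 sustentacular and Bowman gland markers none passed. As single libraries were left out, the count of genes past the threshold in either direction went down to 1 of 5 for the globose basal list (without shCBX8 1, shCBX8 6, shCTR 1 or shCTR 5), to 2 of 10 for the olfactory neuron list (without any 1 of the same 4 libraries) and to 0 of 7 for the endothelial list (without shCBX8 1, shCBX8 6, shCTR 1 or shCTR 6), and it lay between 0 and 3 of 6 for the ensheathing list. Without shCTR 1 and 2 together these counts were 1, 2, 1 and 1. That of the immune list stayed within 1.5 times of 3 in all 22 other settings. Cd14, a monocyte co-receptor, had 129 ± 34.7 CPM in shCBX8 (SD, n = 3) and 30.6 ± 4.73 CPM in shCTR (n = 4), and a difference of 2.08 on the log2 scale (SE 0.29, edgeR's adjusted p = 0.0023).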
